A study of Tupaia belangeri with 2 samples.

Results

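The genes described here are the neurofilament genes NFL and NEFM and the tau gene TAU in the developing brain of the tree shrew (Tupaia belangeri), a small mammal close to primates. They were chosen by name from the deposited list of gene models, and the names NFL, NEFM and TAU were carried by 4 of the 23975 models. NEFM was 1 model (evm.model.chr20.55), TAU was 1 model (evm.model.chr16.873), and NFL was carried by 2 models with neighbouring identifiers (evm.model.chr20.56 and evm.model.chr20.57), called NFL model 56 and NFL model 57 below. All 4 models had UMIs in both embryos. The tables gave no coordinates and no sequence for the models, so none are printed.

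Whole brains of 2 embryos at 4 to 5 postconceptional weeks were dissociated with papain, and each gave 1 single-cell library (10x Genomics, 3′ ends, v3 chemistry). There was no other condition, no strain, genotype or treatment was given, and the dura mater and blood vessels had been removed before dissociation. The level of a gene is given as CPM, the share of its unique molecular identifiers (UMIs) among those of all genes in the same cells, scaled as counts per 1e6. Every mean is over the 2 embryos with the SD (n = 2), and the groups compared come from the same 2 brains.

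Neurofilaments are the intermediate filaments of nerve cells. They are assembled from light (NFL), medium (NEFM) and heavy chains together with alpha-internexin (INA), and they set the calibre of axons. Tau, the product of the gene named MAPT in other annotations, binds and stabilises axonal microtubules. Both are used as markers of neurons, since progenitors build their filaments from vimentin and nestin instead, and the filament genes are switched on as a neuron leaves the cell cycle and extends an axon. Neurons with long projecting axons, including sensory and motor neurons, are known for high neurofilament content.

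The 17735 cells with at least 200 genes (8408 of embryo 1 and 9327 of embryo 2) fell into 17 clusters, made without the 4 models and without any gene of the lists below. Median depth was 3539 and 3169 UMIs per cell, and 17 cell barcodes occurred in both libraries. Neurons of 4 types were named from their markers: midbrain GABA neuron-like (GATA3, OTX2, TFAP2B, PAX7), forebrain GABA neuron-like (among them DLX2, DLX5 and SST), midbrain glutamatergic neuron-like (SLC17A6, EBF3, SHOX2, LHX9, BARHL2) and cortical excitatory neuron-like (NEUROD2, NEUROD6, TBR1, FEZF2). A further neuron-like group, cluster 4, expressed the pan-neuronal markers ELAVL3, SYT4, NSG2, SCG3 and CELF4 but had 4 markers of one neuron type against 3 of another, and was left without a type. Clusters 6, 11 and 12 stayed unnamed. Haemoglobin took 28.7% of all UMIs of embryo 1 and 13.6% of embryo 2.

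NEFM was detected with 7182 UMIs in the cells of embryo 1 and 7422 in those of embryo 2, at 188 and 207 CPM. TAU had 1892 and 2206 UMIs. NFL model 57 had 1184 and 971 UMIs, and NFL model 56 had 653 and 544. The kit counts transcript ends and model lengths were not given, so these totals do not order the genes by level.

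The 2 NFL models are described apart because reads of one gene may have been divided between them. The RefSeq annotation of another tree shrew assembly (TupChi_1.0), used for names only, lists 1 NEFL gene and 1 MAPT gene, and no model in the deposited tables carries either name. In neuron-like cluster 4 there were 0.550 UMIs of model 56 for each UMI of model 57 in embryo 1 and 0.559 in embryo 2. Over the 17 clusters, the log2 levels of the 2 models correlated with r = 0.944 in embryo 1 and 0.919 in embryo 2, and by the lower of these values neither model was nearer to any other of 8399 genes. These correlations describe clusters that share 1 library each.

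All 4 models were lower in both named progenitor classes than in the neuron-like groups. The unnamed cluster 6, led by DBX1, CDKN1C and DLL3, belongs to neither side. It held 121 and 164 CPM of NEFM, against 196 and 143 in cortical excitatory neuron-like cells. In radial glia-like cells, the neural stem cells of the embryonic brain, NEFM stood at 23.6 CPM in embryo 1 and 26.2 in embryo 2. This class joins cluster 3, at 17.9 and 12.1 CPM, and the smaller cluster 10, led by BCAN and VCAM1, at 45.7 and 70.8 CPM. In dividing cell-like cells NEFM stood at 18.0 and 33.2 CPM, in the 4 typed neuron groups between 143 and 275 CPM, and in neuron-like cluster 4 at 1401 and 1145 CPM. In each embryo every neuron-like group was above both progenitor classes for NEFM. Without the cells of the highest doublet scores NEFM stood at 14.49 and 16.4 CPM in radial glia-like cells and at 11.8 and 15.1 CPM in dividing cell-like cells.

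TAU stood at 5.96 and 6.93 CPM in radial glia-like cells and at 5.92 and 8.80 CPM in dividing cell-like cells. In the neuron-like groups TAU ranged from 36.2 CPM in midbrain GABA neuron-like cells of embryo 1 to 307 CPM in cluster 4. The progenitor and neuron ranges of TAU did not overlap.

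NFL model 57 stood at 3.70 and 2.24 CPM in radial glia-like cells, at 3.35 and 1.54 CPM in dividing cell-like cells and between 6.05 and 312 CPM in the neuron-like groups. NFL model 56 stood at 2.88 and 1.56 CPM in radial glia-like cells, at 1.93 and 1.70 CPM in dividing cell-like cells and between 4.79 and 172 CPM in the neuron-like groups. The ranges of the progenitor classes and the neuron-like groups did not overlap for either model. Within the radial glia-like class, cluster 10 reached 6.96 CPM of each model in embryo 1, from 7 UMIs each, inside the neuron-like ranges.

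The UMI sums of the 5 neuron-like groups and of the 2 progenitor classes were tested with the quasi-likelihood test of edgeR, with embryo as a block. All 4 models were higher in neurons, where 34.6% of the 9670 genes tested were called higher and 37.8% lower. TAU had a log2 fold change of 3.69 (SE 0.10, adjusted p = 1.71e-24 in edgeR), which is 12.9-fold. NEFM had a log2 fold change of 3.35 (SE 0.11, adjusted p = 8.94e-23), which is 10.2-fold. NFL model 57 had 3.05 (SE 0.18, adjusted p = 5.18e-16) and NFL model 56 had 2.62 (SE 0.20, adjusted p = 2.69e-13). The contrast weights the neuron groups equally, and the cells were grouped by other genes of the same libraries. With embryo as a block, the p-values set the differences between groups only against how far these varied between the 2 embryos. The edgeR fit estimates that spread partly from the other genes tested.

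The part of free RNA in the progenitor levels was not tested. Levels of erythroid-like cells are given beside them, but these cells are not taken to lack the genes. Cluster 11, led by embryonic globin genes, held 487 and 618 CPM of NEFM. Erythroid-like cells held 13.8 and 8.52 CPM of NEFM and 4.38 and 4.74 CPM of TAU. They held 0.548 and 0.316 CPM of NFL model 57 and 0.767 and 0.316 CPM of NFL model 56. Without the cells of the highest doublet scores they held 6.91 and 4.96 CPM of NEFM and 1.92 and 1.91 CPM of TAU. Haemoglobin fills most of the UMIs of those cells. With haemoglobin left out of the totals, erythroid-like cells held 94.9 CPM of NEFM and 38.6 CPM of TAU on average, above the 25.0 and 6.48 CPM of radial glia-like cells on the same scale. The number of UMIs of NEFM per UMI of INA was 1.34 and 2.21 in radial glia-like cells, 0.979 and 1.64 in dividing cell-like cells and 1.12 and 0.730 in erythroid-like cells.

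**Figure D1:**
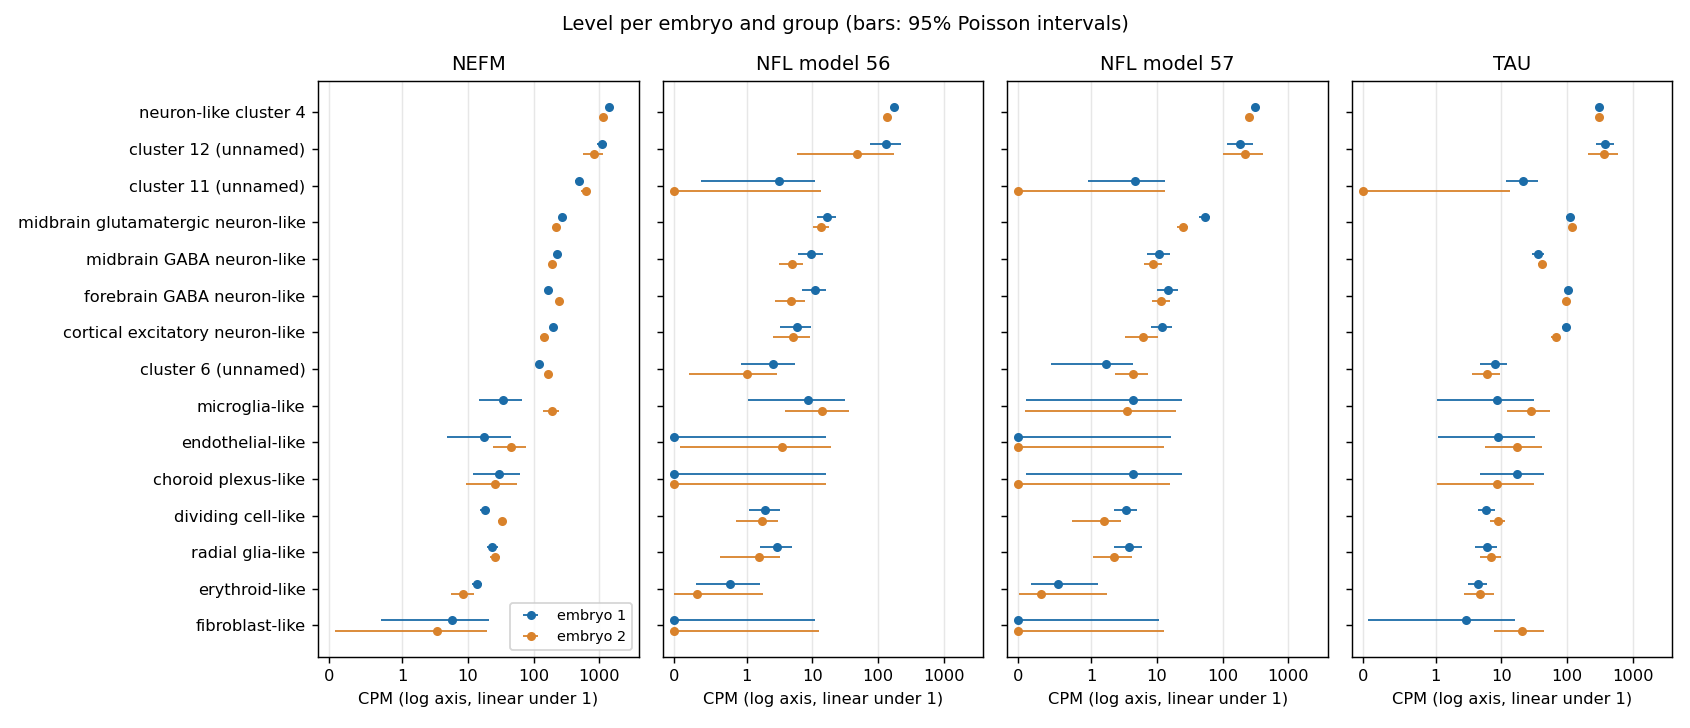
Level of each gene model in every group, in CPM on a log axis that is linear under 1, with 1 point per embryo (blue, embryo 1; orange, embryo 2) and exact 95% Poisson intervals, which cover counting error only. Groups are in the order of the mean level of NEFM. Neuron-like cluster 4 is at or near the top in all 4 panels, and cluster 11 is high for NEFM alone.

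The other genes of the axonal cytoskeleton were taken from fixed lists, and the same contrast was read for each beside the 34.6% of all genes called higher and 37.8% called lower. Among the other intermediate filaments 4 models were tested, of which 2 were higher and 2 lower in neurons. INA, the fourth filament subunit of central neurons, had the largest log2 fold change (4.10), and NES, the nestin of neural stem cells, the smallest (-3.62). VIM, the vimentin of progenitors, was also lower (-3.01), and SYNM (synemin) was higher (1.45). NEFH, the heavy chain, was measured at levels too low to be tested.

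Among the microtubule-associated proteins 12 of 15 models tested were higher, none was lower, and their median log2 fold change was 0.80 against -0.02 over all genes. DCX, the doublecortin of migrating neurons, was highest at 3.03. The lowest of the list was 1 of 3 models named MAP2, at 0.00 with an adjusted p of 0.936 in edgeR. The other models of that name stood at 0.08 and 2.10, and only the last was called. MAP2 can also name a methionine aminopeptidase, and the tables do not tell which of the 3 models is the microtubule protein. All 4 stathmins, which bind free tubulin, were higher, from 1.12 for STMN3 to 3.31 for STMN2, with a median of 1.32.

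Of 7 tubulin models, 4 were higher and 3 lower, from 2.58 for the neuronal beta-tubulin TBB3 to -4.58 for TUBB6. Of 10 growth cone proteins, 9 were higher and 1 lower, from 3.46 for the axonal adhesion protein CNTN2 to -0.27 for MARCKS. Of 14 axonal transport motors, 11 were higher and 3 lower, from 4.03 for KIF5A, the neuronal kinesin that carries neurofilaments, to -0.49 for the dynein light chain DYNLL1. Of 15 kinases and phosphatases that act on tau, 11 were higher and 1 lower, and the largest log2 fold change was 3.14 for CDK5R2, an activator of CDK5. The median was 0.49 for the tubulins, 1.22 for the growth cone proteins, 1.02 for the motors and 0.80 for the kinases and phosphatases.

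Neuron-like cluster 4 carried most of the neurofilament RNA. It made up 8.90% of the cells and held 50.6% of all NEFM UMIs, 75.4% of those of NFL model 56, 75.5% of those of NFL model 57 and 43.6% of those of TAU. NEFM stood there at 1273 CPM ± 181, NFL model 57 at 280 ± 44.9, NFL model 56 at 155 ± 23.2 and TAU at 307 ± 0.37. Against the mean of the other 4 neuron groups in edgeR, all 4 models were higher, where 17.8% of genes were called higher. The log2 fold change was 4.11 for both NFL models (SE 0.11 and 0.12; adjusted p = 3.74e-24 for model 57 and 3.77e-23 for model 56 in edgeR), 2.45 for NEFM (SE 0.08, adjusted p = 2.83e-21) and 1.81 for TAU (SE 0.07, adjusted p = 1.83e-19). Both NFL models were among the 10 genes that led this cluster although they had not been used to make it. The 5 comparisons between neuron groups share samples.

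The size of these values depends on how the cells are clustered. At a resolution of 1.0 a group with granule neuron markers (406 cells) held 2637 CPM of NEFM, and the group without a type that was matched to cluster 4 (1308 cells, more than the remainder of cluster 4) held 746 CPM. With 30 principal components the matched group had 1212 cells, its log2 fold change of NEFM was 0.44, and those of both NFL models stayed above 2. A granule neuron-like group of 475 cells there held 2780 CPM of NEFM. At both settings the granule neuron-like group was among the groups that the matched group was compared with. With at least 1000 genes per cell 2 clusters with 1432 cells in all were named granule neuron-like, with log2 fold changes of 2.28 for NEFM, 4.09 and 4.04 for NFL models 56 and 57 and 1.87 for TAU.

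In the midbrain glutamatergic neuron-like group, excitatory cells of the tectum and its neighbours, NEFM stood at 275 CPM in embryo 1 and 218 in embryo 2. TAU stood at 110 and 118 CPM, NFL model 57 at 53.3 and 24.7 and NFL model 56 at 16.7 and 13.7. In edgeR, where 10.7% of genes were called higher and 6.93% lower, NFL model 57 (log2 fold change 0.66, adjusted p = 0.00143) and TAU (0.26, adjusted p = 0.0231) were higher than the mean of the other neuron groups and NEFM was lower (-0.31, adjusted p = 0.0281). For each typed group that mean includes cluster 4, and among the typed groups NEFM was highest here on average (246 CPM). NFL model 56 was not called (0.15, interval -0.22 to 0.52, adjusted p = 0.623 in edgeR). The calls of NEFM, NFL model 57 and TAU were lost without the block, at adjusted p = 0.307, 0.0921 and 0.184 in edgeR. Both NFL models changed sign with 30 principal components, to -0.78 for model 56 (adjusted p = 0.00209 in edgeR) and -0.27 for model 57 (adjusted p = 0.234). At that setting the other neuron groups also included a granule neuron-like group of 475 cells, with 551 CPM of NFL model 57.

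In the forebrain GABA neuron-like group, inhibitory cells of the ganglionic eminences and their derivatives, NEFM stood at 167 and 243 CPM and TAU at 105 and 97.0 CPM. NFL model 57 stood at 14.6 and 11.7 CPM and NFL model 56 at 11.0 and 4.79. In edgeR NEFM (-0.68), NFL model 56 (-1.27) and NFL model 57 (-1.30) were lower than the mean of the other neuron groups, where 12.1% of genes were called lower. TAU was not called (-0.11, interval -0.29 to 0.07, adjusted p = 0.414 in edgeR). The call of NEFM was lost with DESeq2, at an adjusted p of 0.053.

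In the midbrain GABA neuron-like group, inhibitory cells marked by GATA3, all 4 models were lower than the mean of the other neuron groups in edgeR, where 15.3% of genes were called lower. TAU stood at 36.2 and 41.2 CPM, the lowest of the neuron groups in both embryos, and its log2 fold change was -1.75 (SE 0.10, adjusted p = 7.26e-15 in edgeR). NEFM stood at 229 and 193 CPM (log2 fold change -0.66), within the range of the other typed groups, and its call was lost with DESeq2 (adjusted p = 0.101). This level rests mostly on sub-cluster 0.3, described below, which held 73.3% of the group's NEFM UMIs. SHOX2 and EBF3, among the leading genes of that sub-cluster, are also markers used for the midbrain glutamatergic neuron-like group. Over the whole midbrain GABA neuron-like group, NFL model 57 stood at 10.8 and 8.84 CPM (-1.76) and NFL model 56 at 9.48 and 4.84 (-1.42). INA stood at 230 and 227 CPM in the same cells, so there were 0.158 and 0.182 UMIs of TAU for each UMI of INA, against 0.478 and 0.534 in cluster 4.

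In the cortical excitatory neuron-like group, NEFM stood at 196 and 143 CPM and TAU at 95.9 and 66.6 CPM. NFL model 57 stood at 12.03 and 6.05 CPM and NFL model 56 at 5.82 and 5.12. In edgeR NEFM (-0.80), NFL model 56 (-1.57) and NFL model 57 (-1.71) were lower than the mean of the other neuron groups, where 16% of genes were called higher and 12.6% lower. TAU was not called (-0.20, interval -0.40 to -0.01, adjusted p = 0.146 in edgeR), and was lower at a resolution of 1.0 (-0.36, adjusted p = 0.00663 in edgeR).

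The order of the levels differed between the models in how far neighbours were apart. For TAU, cluster 4 was above midbrain glutamatergic, forebrain GABA, cortical excitatory and midbrain GABA neuron-like cells in that order, and both embryos of each group were above both embryos of the next. For NEFM, each of the 4 typed neuron groups overlapped its neighbour in the order, from midbrain glutamatergic over midbrain GABA and forebrain GABA to cortical excitatory, and all lay under cluster 4, cluster 12 and cluster 11. The place of midbrain GABA neuron-like cells in this order rests mostly on sub-cluster 0.3, described below, with 73.3% of their NEFM UMIs. For NFL model 57, cluster 4, midbrain glutamatergic and forebrain GABA neuron-like cells were separated from the next neuron group in both embryos, and midbrain GABA and cortical excitatory neuron-like cells overlapped. Cluster 12, 178 cells with a median of 677 UMIs, held 1104 and 826 CPM of NEFM from 124 and 34 UMIs and 383 and 364 CPM of TAU from 43 and 15 UMIs.

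**Figure D2:**
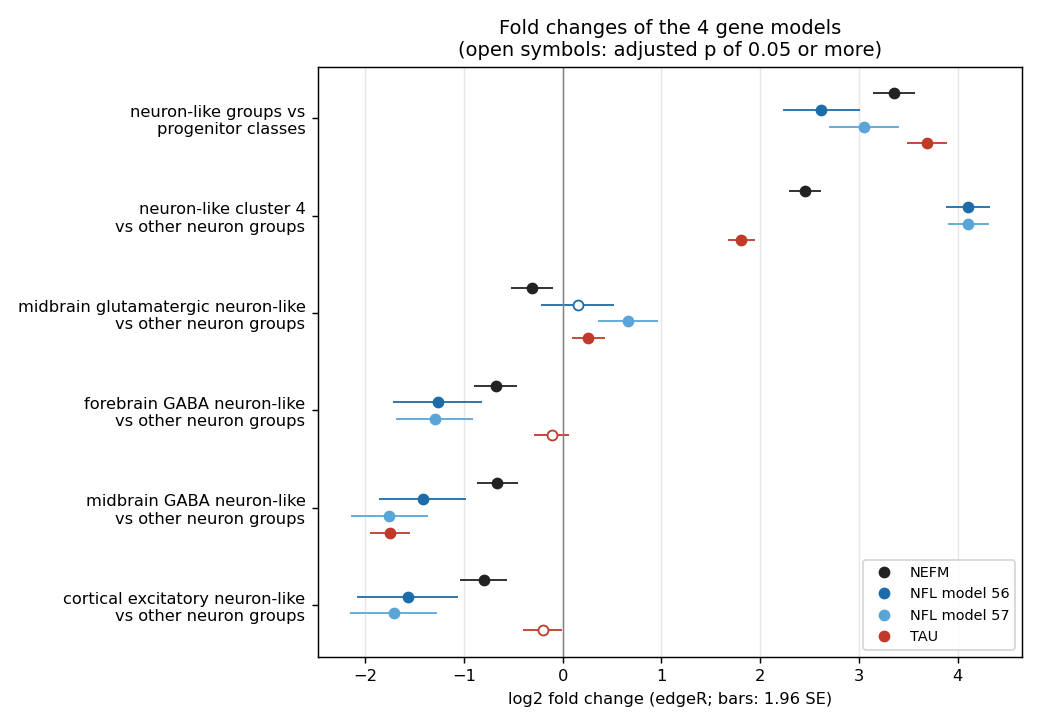
Log2 fold changes from edgeR of the 4 gene models between all neuron-like groups and the progenitor classes, and between each neuron-like group and the mean of the other 4. Bars are 95% intervals, and open symbols mark an adjusted p of 0.05 or more. Cluster 4 is the neuron group in which all 4 models are higher, and midbrain GABA neuron-like cells are the group in which all 4 are lower. The mean set against each typed group includes cluster 4.

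To compare the share of cells with a UMI between groups, each cell was thinned to 2000 UMIs and shallower cells were left out, which were 116 and 115 cells of cluster 4 and 361 and 892 of the midbrain GABA neuron-like group. NEFM was then seen in 43.4% ± 2.5 of cluster 4 cells, 25.7% ± 0.39 of midbrain glutamatergic, 18.1% ± 0.27 of forebrain GABA, 17.6% ± 3.3 of cortical excitatory and 17.3% ± 1.3 of midbrain GABA neuron-like cells. TAU was seen in 40.2% ± 1.9 of cluster 4 cells and in 6.05% ± 0.36 of midbrain GABA neuron-like cells. Either NFL model was seen in 31.1% ± 2.7 of cluster 4 cells and in 2.16% to 7.42% of the typed neuron groups.

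Erythroid-like cells showed NEFM in 1.53% ± 0.29 and TAU in 1.00% ± 0.47 of thinned cells, radial glia-like cells in 2.79% ± 0.71 and 1.32% ± 0.08. Erythroid-like cells had median depths of 12426 and 14320 UMIs, against 3494 and 3510 in cluster 4. Before thinning, NEFM was seen in 50.7% and 49.9% of cluster 4 cells and in 6.19% and 5.63% of erythroid-like cells. The share of TAU in radial glia-like cells was close to that in erythroid-like cells, whose UMIs are mostly haemoglobin, and is read neither as expression nor as a difference.

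NEFM was seen more often in cells with an NFL UMI than in cells without one. In cluster 4, NEFM was seen in 80.6% of the 217 thinned cells of embryo 1 with an NFL UMI and in 27.8% of the 442 without, and in 75.1% and 27.9% in embryo 2. The same direction held in each of the 4 typed neuron groups in both embryos, with 8 to 64 NFL cells in a group. For TAU the direction differed between groups. In cluster 4, NEFM was seen in 45.3% of cells with a TAU UMI and 45.2% of those without in embryo 1, and in 44.4% and 39.9% in embryo 2.

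In the midbrain GABA neuron-like group NEFM was seen less often in cells with a TAU UMI. NEFM was seen in 5.71% of the 35 cells with a TAU UMI and 19.0% of the 569 without in embryo 1, and in 4.11% of 73 and 17.1% of 1085 in embryo 2. In cortical excitatory neuron-like cells the direction was the opposite, with 35.7% of cells with a TAU UMI and 17.6% of those without in embryo 1, and 28.6% and 13.6% in embryo 2. The midbrain GABA neuron-like group pools unlike sub-clusters, and 73.3% of its NEFM UMIs lay in one with little TAU, described below. Whether the direction holds within sub-clusters was not tested. These shares are descriptions of cells within 2 libraries and carry no test.

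**Figure D3:**
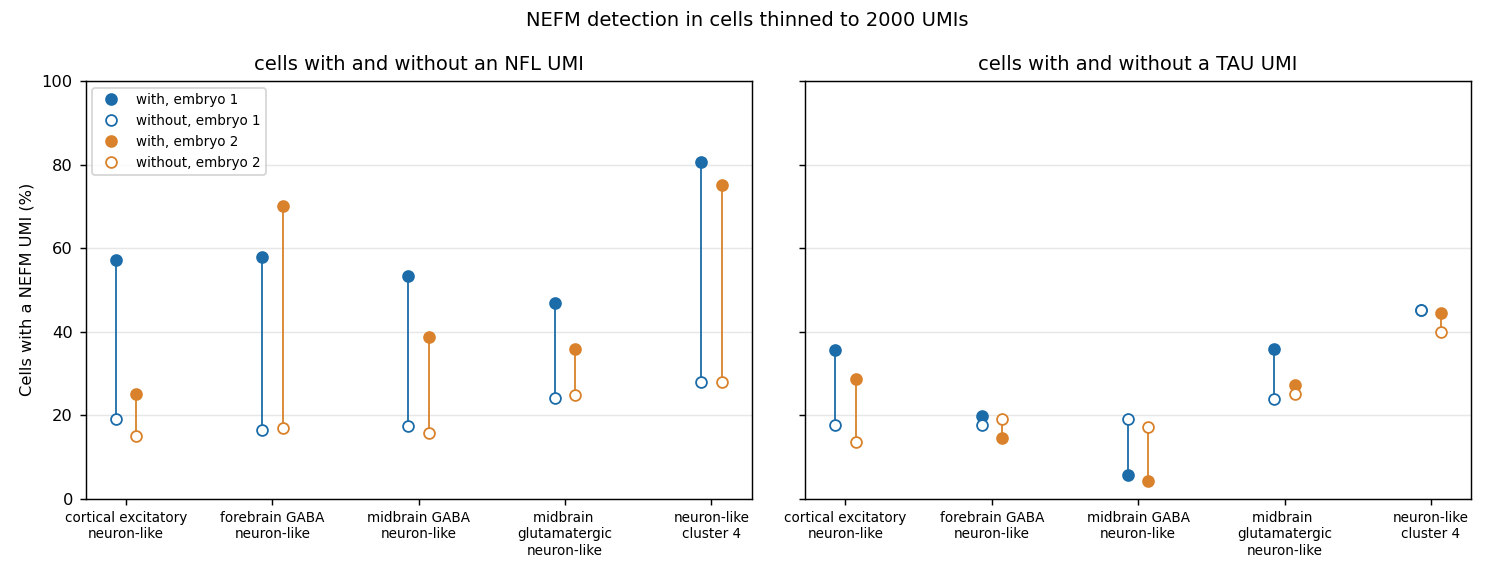
Percentage of neuron-like cells with a NEFM UMI after thinning to 2000 UMIs, among cells with (filled) and without (open) a UMI of either NFL model (left) or of TAU (right), per embryo. NFL cells had NEFM more often in all 5 groups, and in midbrain GABA neuron-like cells TAU cells had NEFM less often, 5.71% against 19.0% in embryo 1. The midbrain GABA neuron-like group pools sub-clusters of unlike NEFM and TAU levels, described below.

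NEFM was concentrated in few cells of each group. The 10% of cells with the most NEFM UMIs held 88.5% and 90.7% of its UMIs in the midbrain GABA neuron-like group, 82.5% and 83.5% in the forebrain GABA neuron-like group, 69.1% and 69.3% in cluster 4, 67.2% and 68.1% in the cortical excitatory neuron-like group and 61.1% and 53.9% in the midbrain glutamatergic neuron-like group. For TAU in cluster 4 the same share was 39.3% and 39.9%. In the typed groups the share of TAU was 66.4% and 65.0% in cortical excitatory and 62.9% and 61.7% in forebrain GABA neuron-like cells. It was 57.6% and 53.4% in midbrain glutamatergic and 100% in midbrain GABA neuron-like cells of both embryos. The cells were ranked by the same UMIs, so a gene seen in few cells gives a high share. The highest count of NEFM in 1 cell was 181 UMIs, in cluster 4 of embryo 1.

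To see which cells these were, the neuron-like clusters and clusters 6 and 11 were each clustered again, without the members and the list genes. The sub-clusters were defined after the levels had been seen and are described by their leading genes, with no test. Within cluster 4, sub-cluster 4.1 (425 cells, led by TCF7L2, PDZRN4, KITLG, CTHRC1 and LHX9) held 61.3% of the cluster's NEFM UMIs. NEFM stood there at 3137 CPM in embryo 1 and 2984 in embryo 2, NFL model 57 at 638 and 569 CPM and TAU at 211 and 228 CPM.

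Sub-cluster 4.5 (40 cells) was led by S100A10, NPFF and SNCG and had SCN9A, a sodium channel of sensory neurons, among its leading genes. NEFM stood at 4044 and 2551 CPM, NFL model 57 at 781 and 513 and TAU at 495 and 482. NEFH, the heavy chain, reached 77.3 and 24.4 CPM there from 10 and 4 UMIs and averaged 3.32 CPM or less in the other sub-clusters of cluster 4. Sub-cluster 4.0 (804 cells), led by the neuropeptide genes AVP and POMC with DLX5 and NKX2-1, was 50.9% of the cluster and held 16.9% of its NEFM UMIs. Its NEFM stood at 558 and 378 CPM and its TAU at 374 and 340 CPM, so TAU was higher than in sub-cluster 4.1 and NEFM lower in both embryos.

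Sub-cluster 4.4 (53 cells), led by RELN and TBR1, held 1159 and 1104 CPM of NEFM. INA lay between 458 and 740.5 CPM in each embryo over all 6 sub-clusters of cluster 4, where NEFM lay between 277 and 4044 CPM.

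In the forebrain GABA neuron-like group, sub-cluster 1.3 (360 cells, led by CHGB, ANO3, GABRA4 and FOXP1) held 63.5% of the NEFM UMIs, at 882 and 920 CPM. Its TAU stood at 153 and 98.2 CPM, against 6.45 to 137 CPM in the others, and its NFL model 57 at 66.2 and 41.3 CPM, against 1.44 to 19.3 CPM. In the cortical excitatory neuron-like group, sub-cluster 7.1 (236 cells, led by LMO7) held 59.9% of the NEFM UMIs at 364 and 282 CPM, with TAU at 189 and 152 CPM.

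In the midbrain GABA neuron-like group, sub-cluster 0.3 (513 cells, led by SHOX2, ST18 and RSRC1 with EBF3 and DLL3) held 73.3% of the NEFM UMIs in 17.01% of the cells. NEFM stood at 622 CPM in embryo 1 and 614 in embryo 2. TAU stood at 3.17 and 3.66 CPM from 2 and 4 UMIs, and INA at 30.1 and 29.3 CPM. The other sub-clusters of this group held 20.2 to 85.7 CPM of TAU and 186 to 641 CPM of INA. NEFM in sub-cluster 0.3 was over the mean of every typed neuron group, while TAU rested on so few UMIs that its counting intervals (0.384 to 11.46 and 0.997 to 9.37 CPM) took in the levels of radial glia-like cells. STMN2 stood at 1538 and 1437 CPM and GAD2, which makes GABA, at 455 and 479 CPM, the lowest of the group. DLL3, a Notch ligand of newly formed neurons, stood at 34.9 and 54.9 CPM.

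The same combination was seen in cluster 6, which was unnamed and led by DBX1, CDKN1C, DLL3, PAX3 and JAG1. Its sub-cluster 6.1 (455 cells, led by EBF3, SHD, CDKN1C and SRRM4, with SHOX2 and ST18) held 79.7% of the cluster's NEFM UMIs. NEFM stood at 350 and 406 CPM, TAU at 15.4 and 5.46 CPM, INA at 22.4 and 10.9 CPM and NFL model 57 at 1.40 and 3.27 CPM. DLL3 stood at 144 and 209 CPM, the highest of the sub-clusters of clusters 0, 6 and 11. In sub-cluster 6.0 of the same cluster NEFM stood at 12.5 and 8.23 CPM. Over the whole of cluster 6 there were 8.79 and 14.8 UMIs of NEFM for each UMI of INA, against 0.470 to 2.18 in the neuron-like groups.

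In the forebrain GABA, cortical and midbrain glutamatergic groups the sub-cluster of lowest TAU held less NEFM than sub-clusters 0.3 and 6.1. Sub-cluster 1.4 of the forebrain group, led by the cell cycle genes UBE2C and CDCA3, held 61.2 and 85.0 CPM of NEFM with 6.45 and 8.94 CPM of TAU. Sub-cluster 7.4 of the cortical group, led by CCND1, KRT19 and CDKN1C, held 34.4 and 22.1 CPM of NEFM, and its TAU was at 0 and 1 UMIs, where a count of 0 allows up to 7.37 CPM. Sub-cluster 2.0 of the midbrain glutamatergic group, led by ST18, held 113 and 165 CPM of NEFM with 24.9 and 17.8 CPM of TAU.

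**Figure D4:**
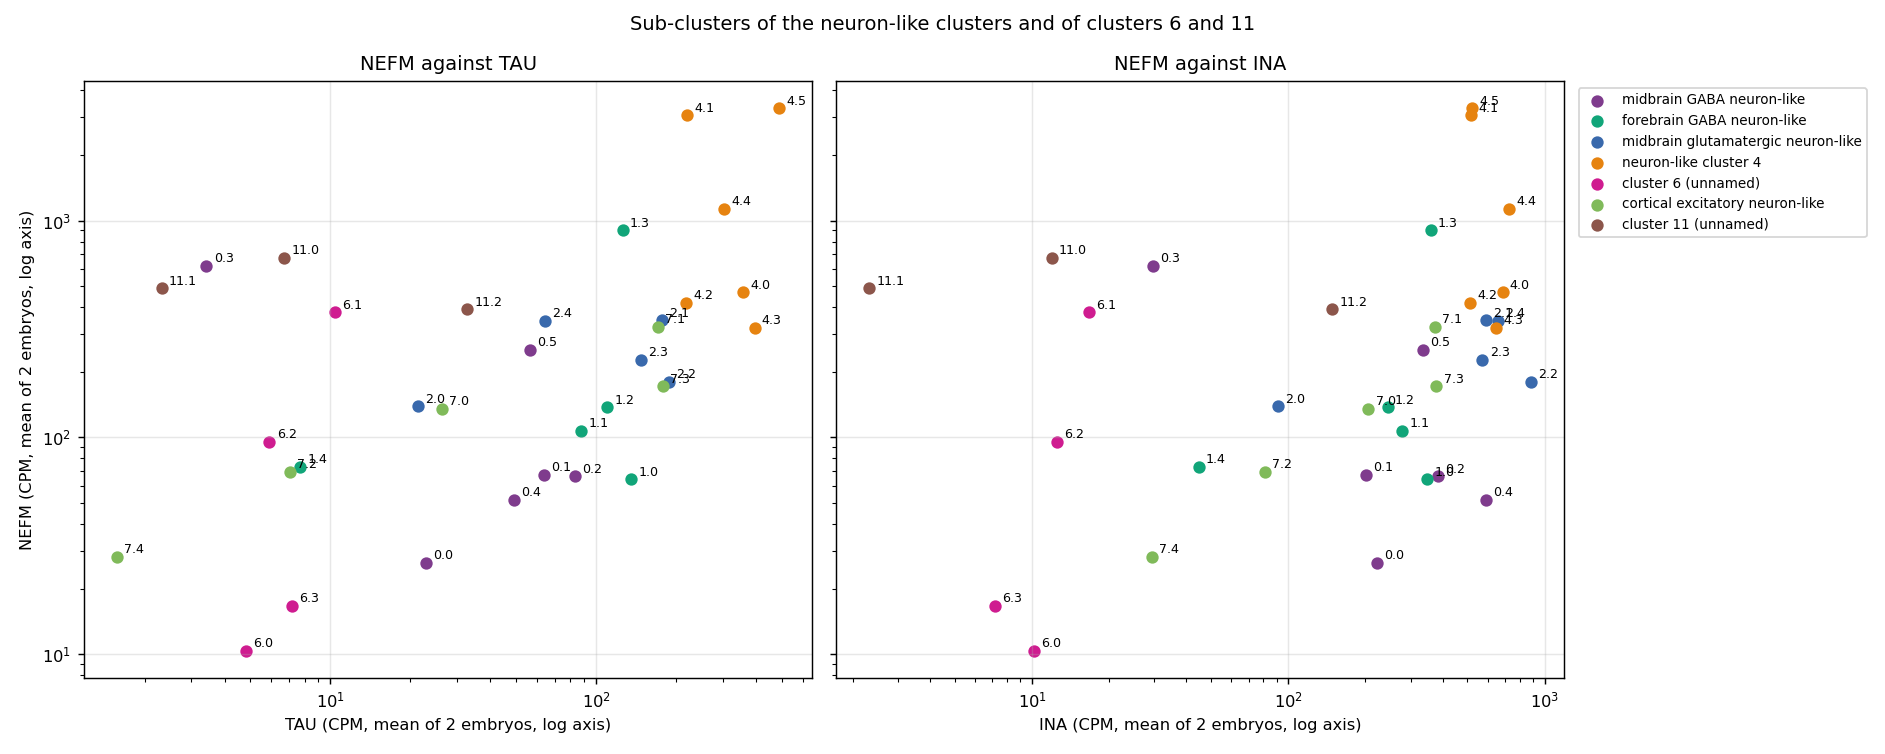
NEFM against TAU (left) and against INA (right) in the sub-clusters with at least 10 cells per embryo, in CPM as the mean of 2 embryos on log axes, coloured by parent group. Sub-clusters 0.3, 6.1, 11.0 and 11.1 lie at NEFM levels of 378 to 673 CPM with TAU of 10.4 CPM or less, and sub-clusters 4.1 and 4.5 lie highest for NEFM.

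Cluster 11 (401 cells) was led by the embryonic globin genes HBE1, HBG1 and HBZ and held NEFM at 487 CPM in embryo 1 and 618 in embryo 2, from 317 and 170 UMIs. TAU had 14 UMIs in embryo 1 and 0 in embryo 2, NFL model 57 had 3 and 0, and NFL model 56 had 2 and 0. Against INA there were 12.2 and 21.3 UMIs of NEFM for each UMI, so the ratio lay apart from that of erythroid-like cells (1.12 and 0.730). With haemoglobin left out of the totals NEFM averaged 809 CPM.

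NEFM was seen in 37.8% of thinned cells of cluster 11 in embryo 1 and 52.0% in embryo 2, with 127 and 50 cells of at least 2000 UMIs. Sub-cluster 11.2, led by SFRP1 and SST, held the cells with most neuronal RNA: STMN2 averaged 1191 CPM there and 36.8% of its 38 cells were among the highest doublet scores. In sub-clusters 11.0 and 11.1, where 0.794% and 0% of cells were, NEFM stood at 735 and 611 CPM and at 329 and 645 CPM, and INA at 16.8 and 7.11 CPM and at 4.63 and 0 CPM. Without the cells of the highest doublet scores NEFM stood at 504 and 575 CPM in cluster 11 and at 124 and 163 CPM in cluster 6.

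Microglia-like cells of embryo 2 held 188 CPM of NEFM from 54 UMIs and those of embryo 1 34.2 CPM from 8 UMIs. Fibroblast-like, choroid plexus-like and endothelial-like cells held 3.45 to 45.6 CPM of NEFM, and NFL model 57 had 1 UMI in these 3 classes together. NFL model 56 stood at 8.55 and 13.9 CPM in microglia-like cells, from 2 and 4 UMIs.

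The genes most like each model over the 17 clusters were named by a fixed rule, the lower Pearson r of the 2 embryos on log2(CPM + 1). For TAU they were NSG2 (r = 0.920 and 0.939), CHD5 (0.921 and 0.916), INA (0.949 and 0.880), ARG2 (0.891 and 0.877) and SLC16A7 (0.877 and 0.884). For NEFM they were KIF5A (0.854 and 0.810), PCLO (0.820 and 0.7997), GABARAPL2 (0.878 and 0.798), SYN1 (0.815 and 0.794) and GRIA2 (0.801 and 0.789). For NFL model 57, after the other NFL model, they were SYN1 (0.906 and 0.883), the unnamed model evm.model.chr1.284 (0.889 and 0.880), PSD2 (0.871 and 0.891) and SLC16A7 (0.864 and 0.883). For NFL model 56 they were CDKL2 (0.894 and 0.887), ERC2 (0.859 and 0.860), TAU (0.853 and 0.856) and TMCC1 (0.847 and 0.857).

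NEFM and TAU correlated with r = 0.895 in embryo 1 and 0.484 in embryo 2, where TAU was at 0 UMIs in cluster 11. By the lower of these values TAU ranked 610 among the genes compared with NEFM. The points share a library in each embryo and differ in depth, and no p is given.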

How the data were processed

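Single-cell RNA was measured in the whole brains of 2 embryos. Per the labels and the study's methods, the authors checked read quality with fastp, aligned and counted them with Cell Ranger 3.1.0 against the TS_2.0 assembly, and deposited raw UMI counts per gene model and barcode, which are not normalized. The submitters' notes also name Seurat 3, whose output was not used here. The 3′ kit counts transcript ends, so ratios of UMIs between genes were compared only between groups of cells. Total counts were 41868023 and 38077767 UMIs. Barcodes with under 200 genes (1191 of 18926) were left out.

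Counts were scaled to 10000 per cell and log-transformed. The 2000 most variable genes, without the members and list genes, gave 20 principal components and a graph of 20 neighbours, and clusters were drawn with leidenalg 0.10.2 (resolution 0.5). A marker counted when seen in at least 10% of a cluster's cells and at least 2 times as high as in other cells, and a name needed 3 markers. A neuron type also needed 2 more markers than the next type, a rule set after the clusters had been seen. Doublets were kept, since Scrublet (scanpy 1.11.5) called 0 and 1 cells. As an alternative the 566 and 696 highest scores were left out.

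UMI sums per embryo and group (14 sums, at least 20 cells each) entered 1 fit of edgeR 4.0.16, run in R 4.3.3 (TMM, filterByExpr, quasi-likelihood test, embryo as a block, Benjamini-Hochberg adjustment over genes, and over the 5 neuron groups together, called at 0.05). The block pairs groups of the same brain. On simulated data for the contrast of neurons and progenitors, with 9198 genes tested, 96% of 2-fold and 100% of 4-fold changes were recovered. A count of 0 was read as up to 3 counts, and Poisson intervals (95%) cover counting error only. Alternatives were at least 1000 genes per cell, doublet scores, a resolution of 1.0, 30 components, RLE size factors, no filter, DESeq2 1.42.0, no block, all classes in the fit, other totals and means, and each embryo left out.

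The members, gene lists, markers and tests were chosen with earlier results of these data known. The genes named from each list are those with the largest and smallest fold change between neurons and progenitors. For filaments, all that were tested are named. Some genes that these rules would name are not reported here. Genes named for sub-clusters were chosen after their values were seen. Genes were matched by the names in the tables, and listed genes without a model of that name were not analysed here.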

Additional observations from a re-analysis of the deposited data

Results flagged for a closer look

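The 1191 barcodes with under 200 genes were used in no comparison, and members were seen there above the limit that a count of 0 allows, 0.503 CPM. NEFM stood at 6.20 CPM (37 UMIs), TAU at 1.005 CPM (6 UMIs) and NFL model 56 at 0.838 CPM (5 UMIs). NFL model 57 had 3 UMIs, which is at that limit. Haemoglobin made up 93.4% of the UMIs of these barcodes, and STMN2 had 182 UMIs and INA 31.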

How the results depend on the processing

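All 36 alternative fits of the 4 models between neurons and progenitors, and all 32 of cluster 4 against the other neuron groups, kept direction and call. Of the 144 fits of the other neuron groups 122 did so, 17 changed side of the threshold and 5 changed direction; the cause was not tested. These counts leave out the values with 1 embryo left out. At a resolution of 1.0 and with 30 components a granule neuron-like group was added to the neuron groups compared. The midbrain GABA neuron-like group then had 1485 and 1499 cells, from 3015. An unnamed cluster of 1528 and 1502 cells was left out of these fits. It had ASIC4 and DSCAM among its leading genes, as did the group of 3015 cells. Reversed were TAU in cortical neurons (0.092 with the highest doublet scores left out, and -0.54 to 0.055 with 1 embryo left out) and, in midbrain glutamatergic neurons, NFL model 56 (-0.46 at a resolution of 1.0, -0.78 with 30 components, -0.066 to 0.34 with 1 embryo left out) and NFL model 57 (-0.042 and -0.27). Log2 fold changes with 1 embryo left out have no test and ranged, for neurons against progenitors, over 3.02 to 3.69 for NEFM, 2.94 to 3.25 for NFL model 57 and 3.45 to 3.91 for TAU, and, for cluster 4, 2.40 to 2.54 for NEFM, 3.92 to 4.30 for NFL model 56, 3.95 to 4.33 for NFL model 57 and 1.78 to 1.89 for TAU.

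Without the replicate block the genes called numbered 1348 in forebrain GABA, 1838 in midbrain GABA, 975 in midbrain glutamatergic neurons and 1934 in cluster 4, and with DESeq2 1369, 1800, 988 and 1884, from 2260, 2978, 1708 and 2933. The level of NEFM in the group matched to cluster 4 was 746 CPM at a resolution of 1.0 and 591 CPM with 30 components. That of NFL model 57 was 206 and 156, that of NFL model 56 99.6 and 82.9 and that of TAU 332 and 330. A granule neuron-like group stood apart at both settings. TAU was also 329 with the highest doublet scores left out and 324 within the same cluster, an alternative chosen after seeing the data, 308 without haemoglobin and 297 as a mean over cells. With at least 1000 genes per cell no neuron-like group without a type was found. The 2 clusters then named granule neuron-like (1432 cells) held 1237 CPM of NEFM, 274 of NFL model 57, 151 of NFL model 56 and 301 of TAU. Precision is limited by 2 embryos and, in the typed groups, by 11 to 121 UMIs of an NFL model per embryo.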
